A study of Homo sapiens with 4 samples.

Results

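The genes of the nuclear pore and of nuclear transport were chosen by name: protein-coding Ensembl rows called NUP, KPNA, KPNB, IPO, XPO or TNPO with a number, together with RAN, RANBP1, RANBP2, RANGAP1, RCC1 and CSE1L. This gave 49 genes of 53777 Ensembl rows, 20269 of them protein-coding. RNA was sequenced from NUGC3, an established human stomach cancer cell line, in 2 libraries of cells with a MYC knockdown and 2 libraries of wild-type cells. No treatment, time point or other allele is given in the labels, and the sources used here do not give the knockdown method. The question was how these RNA levels differ when MYC, a transcription factor that drives cell growth, is knocked down. Separate cultures are not stated for the replicates, and a p-value here therefore reflects the spread among 4 libraries, which may be technical.

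The nuclear pore is a ringed channel through the nuclear envelope built from many copies of nucleoporins, some of which fill the channel with phenylalanine-glycine repeats. Importins and exportins carry cargo through it, and the small GTPase Ran gives the direction: it is loaded with GTP in the nucleus by RCC1 and made to hydrolyse it in the cytoplasm by RANGAP1 with RANBP1. Ribosomal proteins made in the cytoplasm must be imported, and finished ribosomal subunits exported, so growing cells rely heavily on this traffic.

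MYC binds the E-box, whose letters are CACGTG, and promoters of RefSeq genes (GRCh38.p14) were searched for it from 250 bases before the start to 50 bases after it. The motif reads the same on both strands. A window was found for 42 of the 49 genes (not for RANBP1, KPNB1, NUP43, XPO7, KPNA4, KPNA5 and KPNA7). Of these 42 genes, 9 (21.4%) held the motif in at least 1 window, against 1136 of 8943 genes tested with a window (12.7%). Counted by window and with genes not tested included, 2548 of all 35116 windows (7.26%) held it, a unit not comparable with the shares of genes. The motif stood before the start in RAN, RCC1, IPO4, IPO7, KPNA3, NUP50, NUP188, TNPO2 and XPO1. Below are the 250 bases before the start, on the gene's strand, for 6 members picked with their values known. They are 4 members with the motif that lay low in the knockdown (RAN, IPO4, IPO7 and RCC1), NUP188, which holds it at 2 places, and IPO5, which was low and holds none. NUP93, which was also low and holds none in any window, is not shown. Capitals mark the motif. RCC1 has 2 windows, and the one with the motif is shown.
RAN (chr12:130871816-130872065, plus strand): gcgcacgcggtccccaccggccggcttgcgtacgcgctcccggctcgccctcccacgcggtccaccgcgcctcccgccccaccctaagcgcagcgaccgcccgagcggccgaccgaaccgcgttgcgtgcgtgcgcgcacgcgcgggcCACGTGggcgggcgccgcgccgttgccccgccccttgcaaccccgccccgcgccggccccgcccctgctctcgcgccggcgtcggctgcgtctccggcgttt
IPO4 (chr14:24188817-24189066, minus strand): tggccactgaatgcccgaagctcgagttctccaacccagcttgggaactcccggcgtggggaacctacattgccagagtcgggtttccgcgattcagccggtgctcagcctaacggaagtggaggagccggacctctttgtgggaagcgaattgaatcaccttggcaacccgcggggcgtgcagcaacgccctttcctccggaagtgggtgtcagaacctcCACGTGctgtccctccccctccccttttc
IPO7 (chr11:9384402-9384651, plus strand): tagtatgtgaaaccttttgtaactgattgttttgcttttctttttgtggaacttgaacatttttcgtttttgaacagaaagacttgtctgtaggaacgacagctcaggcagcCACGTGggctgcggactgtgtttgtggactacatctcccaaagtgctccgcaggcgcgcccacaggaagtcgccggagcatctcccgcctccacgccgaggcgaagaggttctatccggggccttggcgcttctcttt
RCC1 (chr1:28517976-28518225, plus strand): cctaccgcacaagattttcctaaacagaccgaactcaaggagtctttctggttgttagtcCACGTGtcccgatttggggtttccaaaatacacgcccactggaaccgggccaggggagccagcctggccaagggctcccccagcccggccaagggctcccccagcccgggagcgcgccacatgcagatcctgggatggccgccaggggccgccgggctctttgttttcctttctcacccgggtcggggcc
NUP188 (chr9:128947449-128947698, plus strand): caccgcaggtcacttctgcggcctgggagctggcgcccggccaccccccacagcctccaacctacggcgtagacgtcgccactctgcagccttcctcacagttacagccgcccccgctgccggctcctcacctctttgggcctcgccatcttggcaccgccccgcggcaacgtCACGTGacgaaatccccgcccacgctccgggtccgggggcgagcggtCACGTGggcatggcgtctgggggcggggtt
IPO5 (chr13:97953425-97953674, plus strand): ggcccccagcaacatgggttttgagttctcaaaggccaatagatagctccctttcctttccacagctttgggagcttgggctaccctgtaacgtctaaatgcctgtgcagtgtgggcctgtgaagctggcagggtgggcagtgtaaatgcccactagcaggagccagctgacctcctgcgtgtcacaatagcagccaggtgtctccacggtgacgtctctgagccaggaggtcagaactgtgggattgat
The first base of the motif lay at −102 in RAN, −29 in IPO4, −138 in IPO7 and −190 in RCC1, and at −77 and −30 in NUP188, counted from the start. A match of letters is a description and not a binding site. The median log2 change was −0.33 over the 9 members with the motif and −0.14 over the members tested whose windows lacked it, while over all genes tested it was 0.02 with the motif and 0.04 without. For KPNA3, NUP50, TNPO2 and XPO1, which hold the motif and are not shown, the log2 changes were −0.33, −0.29, −0.03 and −0.15. The part of the motif in these changes was not tested.

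MYC itself (ENSG00000136997; chromosome 8, 127735434 to 127741434, plus strand, GENCODE release 29 on GRCh38) stood at 65.0 and 75.8 FPKM in the knockdown libraries, against 82.9 and 82.0 FPKM in wild type. FPKM counts fragments relative to transcript length and library size; the unit of the deposited values was read from the values themselves. The knockdown pair was the lower one without overlap, at a log2 change of −0.23 ± 0.10 (SE) that missed the threshold (limma adjusted p = 0.237). All 7 epithelial markers were expressed, the lowest reading being 54.3 FPKM for CDH1. Of 8 markers of blood, vessel and fibroblast cells found in the table, PTPRC, VWF, COL1A2 and DCN were at 0 in every library, while CD68 lay between 12.4 and 22.3 FPKM and COL1A1 between 2.98 and 8.12 FPKM. CD68 and COL1A1, the 2 of them that were tested, summed to 29.6 and 25.3 FPKM in the knockdown libraries, against 19.0 and 22.8 FPKM in wild type, and their part in the results was not tested. MYC knockdown replicate 1 stood apart in interferon-stimulated genes: the 17 tested of 20 listed summed to 1794 and 321 FPKM in the knockdown libraries, against 320 and 317 FPKM in wild type. Steps in low values put wild type replicate 2, MYC knockdown replicate 1 and MYC knockdown replicate 2 at 81.3%, 75.5% and 77.9% of the depth of wild type replicate 1, and the absolute depth is unknown.

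Of the 49 members, 47 had at least 1 FPKM in at least 2 libraries and were tested. NUP210L and KPNA7 reached at most 0.02 and 0.06 FPKM. Limma with Benjamini-Hochberg adjustment over 12953 genes called 0 genes at 0.05 (0%), members included, so a threshold of 0.10 is used below. At 0.10, 7 members were lower in the knockdown, 14.9% of those tested against 4.91% of all genes tested: RAN, RANBP1, KPNB1, IPO4, IPO5, IPO7 and NUP93. None was higher at 0.10 by limma, against 5.50% of all genes. At an unadjusted p under 0.05, limma gave 16 of the 47 members lower and 1 higher, against 1488 and 1866 of all 12953 genes.

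Most other members leaned the same way by small amounts. The knockdown pair lay wholly below the wild-type pair for 29 of the 47 (61.7%, against 25.2% of all genes tested) and wholly above it for 3 (6.38%, against 33.4%), namely IPO13, KPNA4 and NUP210. The median log2 change of the members, knockdown minus wild type on log2(FPKM + 1), was −0.18, with 36 below 0, while that of all genes tested was 0.04. Taken 1 library at a time, the members' median difference from the wild-type mean was −0.17 for MYC knockdown replicate 1 and −0.18 for replicate 2. Bulk FPKM cannot tell less RNA per cell from fewer cells expressing a gene. Leaving out 1 library moved the calls, among the members and among all genes, in fits whose spread rests on the other group's pair. The members' median log2 change was −0.178 and −0.180 without wild type replicate 1 or 2, against 0.036 and 0.041 over all genes. Without MYC knockdown replicate 1 or 2 it was −0.175 and −0.167, against 0.008 and 0.073. With every library scaled to equal sums the members' median was −0.08 against 0.12 for all genes, and 4 members were lower. With no filter on low values, none of the 7 was called.

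**Figure D1:**
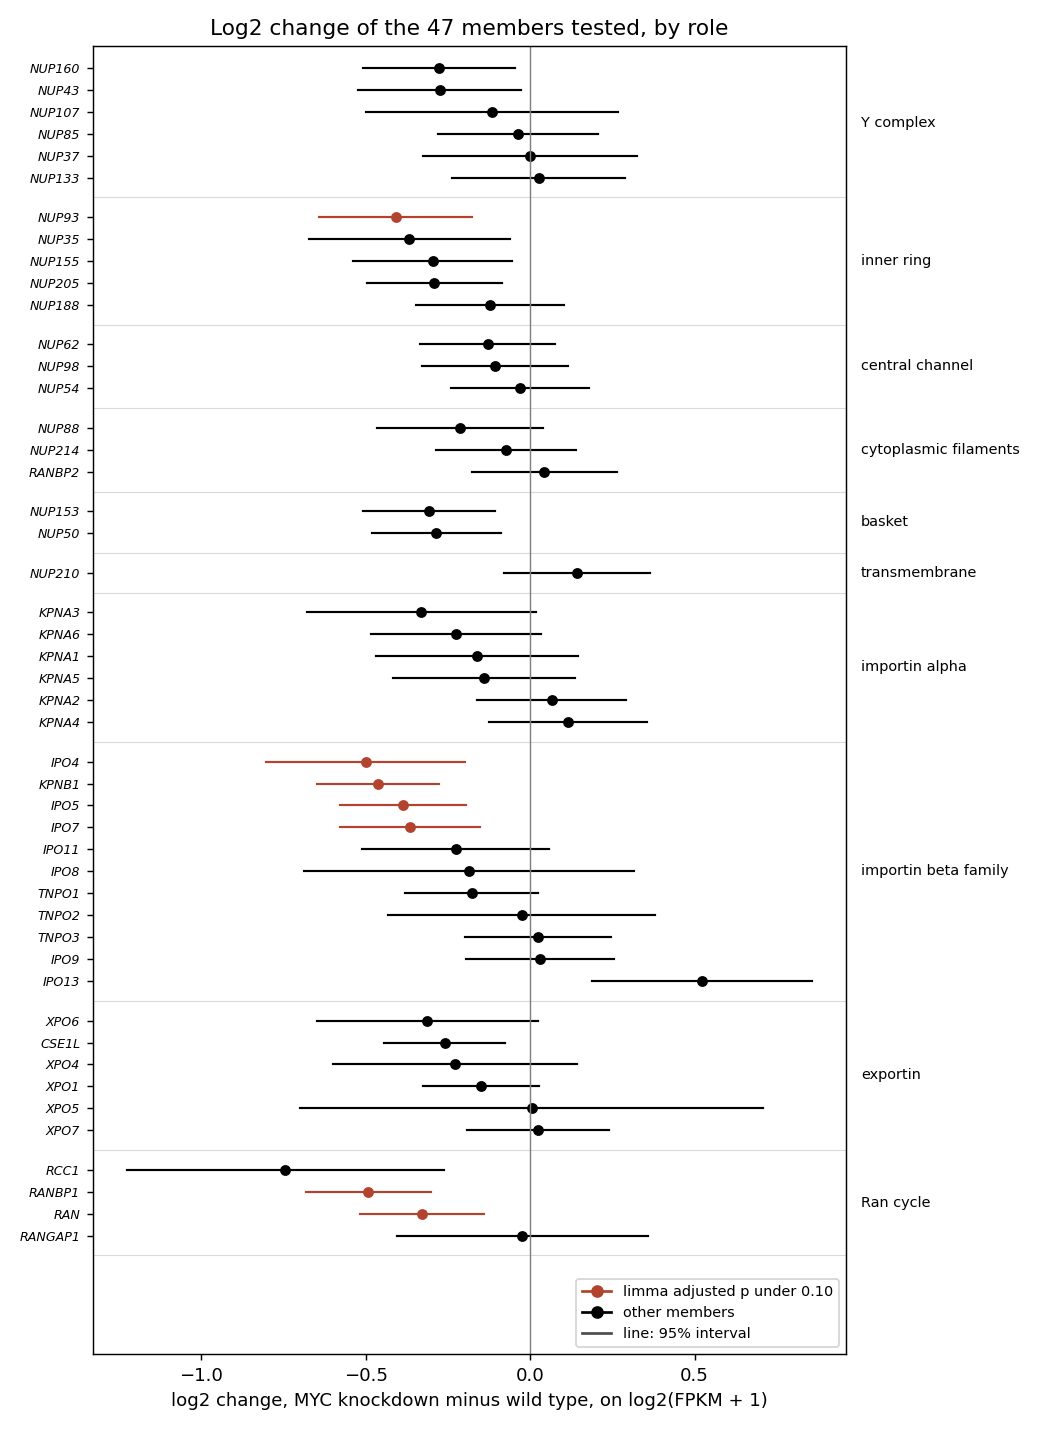
Log2 change (MYC knockdown minus wild type, on log2(FPKM + 1)) of the 47 members tested, grouped by role, with limma's 95% interval as a line. The 7 members with an adjusted p under 0.10, drawn in red, all lie left of 0, and IPO13 lies farthest right at 0.52.

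The 4 Ran cycle genes had the most negative median log2 change of the roles, −0.41, and 2 of them fell at 0.10 (50.0%, against 4.91% of all genes tested). Those 2, RAN and RANBP1, had a mean of at least 100 FPKM, a level at which 18.8% of genes tested were called lower. RAN (ENSG00000132341; chromosome 12, 130871879 to 130877678, plus strand), the GTPase itself and the most abundant member, stood at 535 and 505 FPKM in the knockdown libraries, against 644 and 663 FPKM in wild type. The groups did not overlap, and RAN averaged 519.9 ± 21.4 FPKM in the knockdown and 653 ± 13.3 FPKM in wild type (SD, n = 2 each), a log2 change of −0.33 ± 0.07 (SE; limma adjusted p = 0.0886). Of the 3 other scalings, 2 ended the call: equal column sums, at −0.23 (limma adjusted p = 0.102), and quantile normalization, at −0.19 (limma adjusted p = 0.164). Pseudogenes of RAN, 9 in the table, summed to under 1 FPKM in every library.

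RANBP1 (ENSG00000099901; chromosome 22, 20115938 to 20127357, plus strand), which binds Ran-GTP as it leaves the pore and helps RANGAP1 act on it, stood at 181 and 171 FPKM in the knockdown, against 251 and 245 FPKM in wild type. Both knockdown libraries lay about equally far below the wild-type pair. Its log2 change was −0.49 ± 0.07 (SE), with the smallest adjusted p of the members (limma adjusted p = 0.0574). In GENCODE release 29, 8.5% of its exon bases overlap TRMT2A on the other strand, and strand use in counting is not stated.

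RCC1 (ENSG00000180198; chromosome 1, 28505943 to 28539300, plus strand), the chromatin-bound exchange factor that loads Ran with GTP, stood at 29.2 and 41.8 FPKM in the knockdown, against 59.7 and 58.7 FPKM in wild type. Its log2 change of −0.74 ± 0.18 (SE) was the furthest from 0 of all members tested. The 2 knockdown libraries differed from each other more than for most members, at −0.997 and −0.491 from the wild-type mean, and the change missed the threshold (limma adjusted p = 0.103). It passed among genes with a mean of at least 5 FPKM (limma adjusted p = 0.0902) and with protein-coding rows alone (limma adjusted p = 0.0877). In these settings 7.32% and 6.50% of all genes tested were called lower. SNHG3, a noncoding gene that shares 6.2% of RCC1's exon bases on the same strand in GENCODE release 29, stood at 13.2 and 8.55 FPKM in the knockdown, against 25.5 and 34.2 FPKM in wild type, and fell as well (limma adjusted p = 0.0688). The sources used here do not say how reads were split between the 2 genes.

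RANGAP1 (ENSG00000100401), the GTPase-activating protein that ends the cycle, stood at 100.01 and 76.5 FPKM in the knockdown, against 87.6 and 90.4 FPKM in wild type. The knockdown values lay on either side of the wild-type pair. The log2 change was −0.02 (95% interval −0.41 to 0.36; limma adjusted p = 0.934), −0.22 without MYC knockdown replicate 1 and 0.17 without MYC knockdown replicate 2, both past 0.10 in fits whose spread rests on the wild-type pair. In a comparison chosen after the values were seen, the FPKM of RCC1 was 0.292 and 0.547 of that of RANGAP1 in the knockdown libraries, against 0.682 and 0.649 in wild type.

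**Figure D2:**
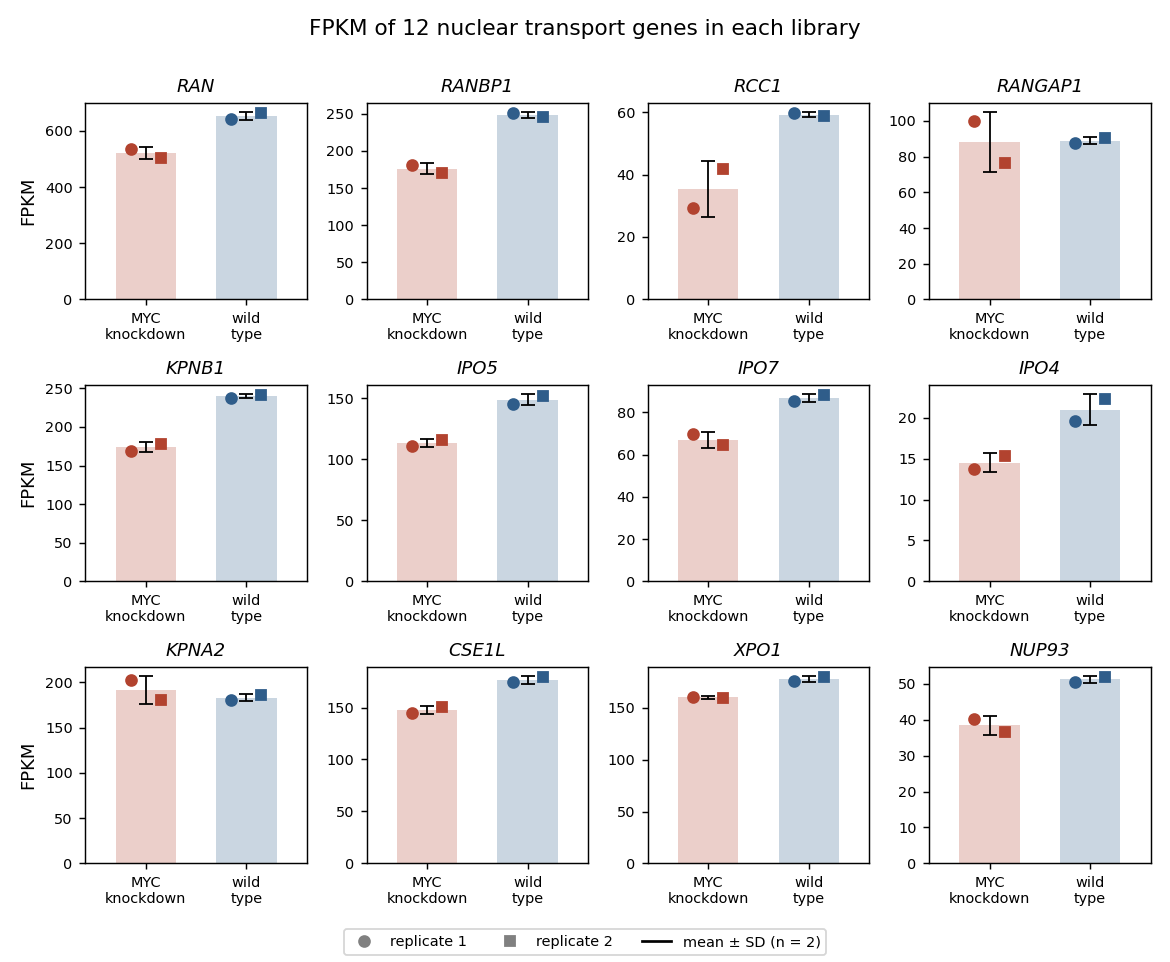
FPKM of 12 nuclear transport genes in each library (points), with the mean as a bar and the SD as a line (n = 2), MYC knockdown left of wild type. RAN, RANBP1, KPNB1, IPO4, IPO5, IPO7 and NUP93 show both knockdown points below both wild-type points. So do RCC1, CSE1L and XPO1, which were not called at 0.10, while the knockdown points of RANGAP1 fall on either side.

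Among the import receptors of the importin beta family, 4 of 11 fell at 0.10 (36.4%, against 4.91% of all genes) and none rose (against 5.50%). Of these, KPNB1 and IPO5 had a mean of at least 100 FPKM, a level at which 18.8% of genes tested were called lower. KPNB1 (ENSG00000108424; chromosome 17, 47649476 to 47685505, plus strand), importin beta, which docks the cargo adaptor importin alpha at the pore, stood at 169 and 178 FPKM in the knockdown, against 238 and 242 FPKM in wild type. The groups were well apart, at 173.8 ± 6.15 FPKM in the knockdown and 239.8 ± 2.75 FPKM in wild type (SD, n = 2 each). Its log2 change was −0.46 ± 0.07 (SE; limma adjusted p = 0.0598). KPNB1 and RANBP1 kept their call under every alternative run except no filter on low values and leaving out either wild-type library.

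The other importins that fell, IPO5, IPO7 and IPO4, are known as carriers of ribosomal proteins and histones. IPO5 (ENSG00000065150; chromosome 13, 97953658 to 98024297, plus strand) stood at 111 and 116 FPKM in the knockdown, against 146 and 152 FPKM in wild type, a log2 change of −0.39 ± 0.07 (SE; limma adjusted p = 0.0736). IPO7 (ENSG00000205339; chromosome 11, 9384622 to 9448126, plus strand) stood at 69.8 and 64.3 FPKM in the knockdown, against 85.3 and 88.0 FPKM in wild type. Both genes had knockdown pairs clear of the wild-type pair, and the log2 change of IPO7 was −0.37 ± 0.08 (SE; limma adjusted p = 0.0910). IPO4 (ENSG00000196497; chromosome 14, 24180219 to 24188964, minus strand), the least abundant of these importins, stood at 13.7 and 15.3 FPKM in the knockdown, against 19.6 and 22.3 FPKM in wild type. It showed the largest log2 change of the importins that fell, −0.50 ± 0.11 (SE; limma adjusted p = 0.0939). In GENCODE release 29, 69.3% of the exon bases of IPO4 also belong to AL136295.4, a protein-coding annotation on the same strand, so its reads could be split. Of the 3 other scalings, equal column sums ended the call of IPO5, at a log2 change of −0.29 (limma adjusted p = 0.1006). The call of IPO4 ended with equal column sums, at −0.41 (limma adjusted p = 0.1204), and with quantile normalization, at −0.54 (limma adjusted p = 0.1022).

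IPO13 (ENSG00000117408), which carries cargo in both directions, was the member with the largest positive difference. It stood at 6.37 and 7.33 FPKM in the knockdown, against 4.41 and 4.50 FPKM in wild type, without overlap. Its log2 change of 0.52 ± 0.13 (SE) narrowly missed the threshold (limma adjusted p = 0.102). It passed with a pseudocount of 0.1, where the change was 0.61 (limma adjusted p = 0.0991), with equal column sums and with protein-coding rows alone. In these settings 5.34%, 12.67% and 7.79% of all genes tested were called higher. Without MYC knockdown replicate 1 or 2 the log2 change of IPO13 was 0.61 and 0.43. For TNPO1, which imports hnRNP proteins, IPO11 and IPO8 the log2 changes were −0.18, −0.23 and −0.19, and for TNPO2, TNPO3, the importer of SR splicing factors, and IPO9 they were −0.03, 0.02 and 0.03; none of these 6 passed. For IPO9 the 95% interval was −0.20 to 0.26, so a difference of the size seen for KPNB1 lies outside it.

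Of the importin alpha genes, the adaptors that recognise classical import signals, 0 of 6 tested passed at 0.10 by limma, and 0 had an unadjusted p under 0.05. Of all 12953 genes tested, 4.91% were called lower and 5.50% higher at 0.10, and 1488 were lower and 1866 higher at that unadjusted p. With 6 genes, a count of 0 does not tell importin alpha from all genes. KPNA2, the most abundant of them, stood at 202 and 181 FPKM in the knockdown, against 180.2 and 186 FPKM in wild type. The groups overlapped, and its log2 change was 0.07 (95% interval −0.16 to 0.29). It made up 65.8% and 61.3% of the summed importin alpha FPKM in the knockdown libraries, against 59.6% and 59.7% in wild type. Relative to KPNB1, a ratio chosen after the values were seen, KPNA2 stood at 1.195 and 1.015 in the knockdown libraries, against 0.7576 and 0.7675 in wild type. The ratio was thus higher in both knockdown libraries, with the 2 levels about equal in MYC knockdown replicate 2.

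KPNA3 stood at 27.2 and 33.9 FPKM in the knockdown, against 37.1 and 39.8 FPKM in wild type, the most negative log2 change of the importin alpha genes at −0.33 (limma adjusted p = 0.208). KPNA4 was at the other end, at 23.1 and 21.5 FPKM in the knockdown against 20.1 and 20.9 FPKM in wild type, a log2 change of 0.11 (limma adjusted p = 0.473). The log2 changes of KPNA1, KPNA5 and KPNA6 were −0.16, −0.14 and −0.23.

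Of the exportins, 0 of 6 passed at 0.10 by limma, near the 4.91% of all genes tested called lower and the 5.50% called higher. Their median log2 change was −0.19. At an unadjusted p under 0.05, 1 was lower, where 1488 of all 12953 genes tested were lower. That 1 was CSE1L (ENSG00000124207), which returns importin alpha to the cytoplasm, at 145 and 150.1 FPKM in the knockdown, against 174 and 179 FPKM in wild type. Its groups did not overlap, and the log2 change was −0.26 ± 0.07 (SE; limma adjusted p = 0.115). XPO1 (ENSG00000082898), the main exporter of proteins with leucine-rich signals and of ribosomal subunits, stood at 161 and 159 FPKM in the knockdown, against 176 and 179.9 FPKM in wild type. Again the groups did not overlap, at a log2 change of −0.15 (95% interval −0.33 to 0.03; limma adjusted p = 0.243).

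XPO5, the exporter of microRNA precursors, gave the widest split between the knockdown libraries of all members. It stood at 41.2 and 23.6 FPKM in the knockdown, against 30.8 and 31.4 FPKM in wild type, so that MYC knockdown replicate 1 lay above the wild-type pair by 0.39 and MYC knockdown replicate 2 below it by 0.38 on the log2 scale. XPO6, the actin exporter, stood at 37.6 and 30.1 FPKM in the knockdown, against 42.6 and 41.6 FPKM in wild type, a log2 change of −0.31 (limma adjusted p = 0.213). XPO7 stood at 27.6 and 28.0 FPKM in the knockdown, against 26.7 and 28.0 FPKM in wild type, and XPO4 had a log2 change of −0.23.

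Of the 20 structural pore genes tested, 1 fell at 0.10 (5.0%, near the 4.91% of all genes tested), and 13 lay below wild type without overlap (65.0%, against 25.2%). The inner ring, which anchors the channel to the membrane, had all 5 members below wild type without overlap, at a median log2 change of −0.30, and 1 of the 5 passed at 0.10, where 25.2% of all genes tested lay lower without overlap and 4.91% were called lower. That member was NUP93 (ENSG00000102900; chromosome 16, 56730105 to 56850286, plus strand), which links the ring to the channel, at 40.3 and 36.5 FPKM in the knockdown, against 50.6 and 51.9 FPKM in wild type. The knockdown pair lay clear of the wild-type pair, and the log2 change was −0.41 ± 0.09 (SE; limma adjusted p = 0.0879). NUP35, NUP155, NUP205 and NUP188 had log2 changes of −0.37, −0.30, −0.29 and −0.12, and their limma adjusted p lay between 0.115 and 0.421.

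Both nuclear basket members that the rule names were close behind, while TPR of the basket, which it does not name, had a log2 change of 0.07. NUP153, which faces the nuclear interior, stood at 36.2 and 35.5 FPKM in the knockdown, against 44.4 and 44.9 FPKM in wild type, and missed the threshold at a log2 change of −0.31 ± 0.08 (SE; limma adjusted p = 0.104). NUP50, its partner in releasing import cargo, had a log2 change of −0.29 (limma adjusted p = 0.111). In neither gene did the groups overlap, and the replicates of each group differed by under 0.05 on the log2 scale.

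The Y complex, the outer ring scaffold, was mixed: 2 of its 6 members lay below wild type without overlap (33.3%, near the 25.2% of all genes tested) and 4 overlapped, at a median log2 change of −0.08. NUP160 stood at 36.1 and 33.9 FPKM in the knockdown, against 41.1 and 44.2 FPKM in wild type (log2 change −0.28; limma adjusted p = 0.146), and NUP43 had a log2 change of −0.28 (limma adjusted p = 0.164). NUP133 stood at 45.1 and 39.4 FPKM in the knockdown, against 42.2 and 40.5 FPKM in wild type. For NUP37, NUP85 and NUP107 the log2 changes were 7.4e-05, −0.04 and −0.12, with MYC knockdown replicate 1 above MYC knockdown replicate 2 in each. The difference between the inner ring and the Y complex was not tested.

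Of the central channel and cytoplasmic filament genes, none passed at 0.10 by limma or at an unadjusted p under 0.05. At 0.10, 4.91% of all genes tested were lower and 5.50% higher, so none among so few genes is near those shares. The channel members NUP62, NUP98 and NUP54, which carry the repeats that receptors bind, had log2 changes of −0.13, −0.11 and −0.03. NUP62 stood at 38.8 and 40.3 FPKM in the knockdown, against 43.7 and 43.0 FPKM in wild type, without overlap (limma adjusted p = 0.354). On the cytoplasmic face, NUP88 stood at 34.5 and 34.6 FPKM in the knockdown, against 42.8 and 37.8 FPKM in wild type, a log2 change of −0.21 (limma adjusted p = 0.242), and NUP214 had a log2 change of −0.07.

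RANBP2, the giant filament protein that holds RANGAP1 at the pore, stood at 30.9 and 29.1 FPKM in the knockdown, against 28.96 and 29.24 FPKM in wild type, a log2 change of 0.04 (95% interval −0.18 to 0.26). It has near-identical relatives, the RGPD genes, 7 of which summed to 25.8 and 21.1 FPKM in the knockdown, against 22.5 and 21.8 FPKM in wild type, so its own value is uncertain. NUP210, a pore membrane protein, stood at 32.0 and 30.0 FPKM in the knockdown, against 27.9 and 28.0 FPKM in wild type, above without overlap but not past the threshold (log2 change 0.14; limma adjusted p = 0.345).

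Summed by role, FPKM in the knockdown averaged 78.1% of wild type for the Ran cycle, 79.8% for the importin beta family, 81.2% for the basket without TPR, 81.4% for the inner ring, 88.2% for exportins, 92.7% for the Y complex, 93.5% for the central channel and 98.3% for importin alpha. The sum was 93.55% of wild type for the cytoplasmic filaments. For the transmembrane genes that the rule names it was 110.9%, where NUP210, the only 1 of them tested, made up all of it. The pore membrane genes NDC1, POM121 and POM121C, which the rule does not name, had log2 changes of −0.22, −0.09 and 0.10. None of these passed at 0.10. All genes tested summed to 93.5% of wild type. Sums follow the most abundant genes of a role, so RAN, at 18.6% and 18.3% of the summed FPKM of all members in the knockdown and 19.5% and 19.7% in wild type, weighs most.

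The abundant members held most of the calls. Of the 7 members with a mean of at least 100 FPKM (RAN, RANBP1, KPNB1, KPNA2, XPO1, CSE1L and IPO5), 6 lay below wild type without overlap and 4 were called at 0.10, with a median log2 change of −0.33. KPNA2 was the 1 whose groups overlapped. Abundant genes in general leaned the same way: of 919 genes tested with that mean, 48.1% lay lower without overlap, 18.8% were called lower and the median log2 change was −0.10. Among the 40 members tested below that level the median was −0.15 and 3 were called lower (7.5%, against 4.91% of all genes tested at any level). Spearman's rho between mean FPKM and log2 change was −0.29 over the 47 members and −0.12 over all genes tested, where each point shares the same 4 libraries.

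**Figure D3:**
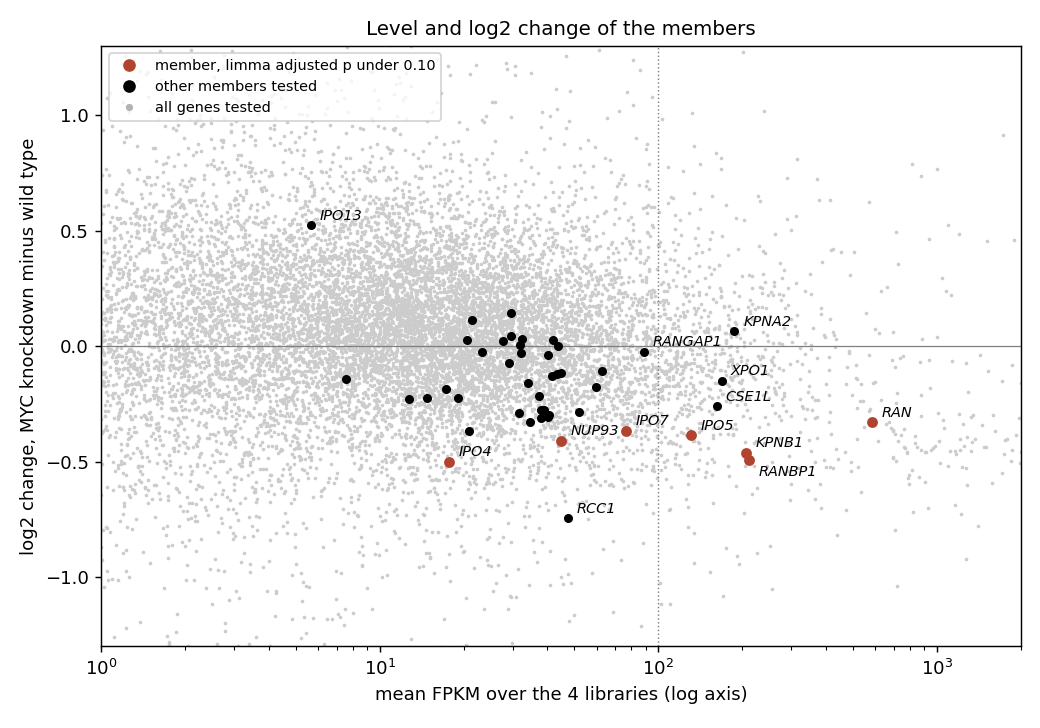
Mean FPKM over the 4 libraries (log axis) against log2 change (MYC knockdown minus wild type) for all genes tested (grey) and the members (black, or red where the adjusted p was under 0.10); 393 genes outside the axes are not drawn. To the right of the dotted line at 100 FPKM, 6 of 7 members lie below 0 and KPNA2 lies just above it.

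The 2 knockdown libraries differed from each other more than the wild-type libraries did. The median absolute log2 difference between the knockdown libraries was 0.12 over the members, against 0.04 between the wild-type libraries, and 0.20 and 0.08 over all genes tested. Of the 47, 8 members differed by over 0.30 between the knockdown libraries. XPO5, TNPO2, RANGAP1 and XPO6 were higher in MYC knockdown replicate 1, and IPO8, RCC1, XPO4 and KPNA3 were higher in MYC knockdown replicate 2. IPO8, which imports Argonaute proteins, stood at 13.2 and 19.3 FPKM in the knockdown, against 18.5 and 18.0 FPKM in wild type, so only MYC knockdown replicate 1 lay low. For the interferon-stimulated genes the median differences from the wild-type mean were 2.86 in MYC knockdown replicate 1 and 0.11 in replicate 2, and their part in the differences between the knockdown libraries was not tested.

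**Figure D4:**
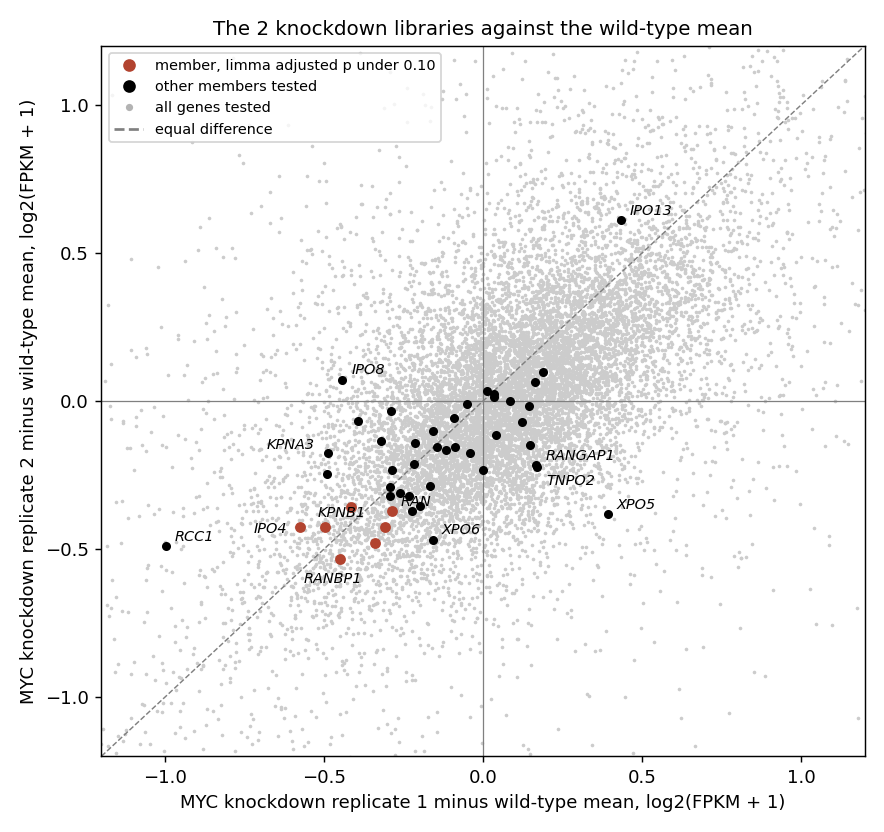
Difference of each knockdown library from the wild-type mean on log2(FPKM + 1), MYC knockdown replicate 1 on the x axis and replicate 2 on the y axis, for all genes tested (grey) and the members (black, or red where the adjusted p was under 0.10); 475 genes beyond 1.2 on either axis are not drawn. The 7 called members sit near the line of equal difference in the lower left, while XPO5 and IPO8 sit on opposite sides of 0 in the 2 libraries.

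Other genes of the pathway, from lists that the naming rule does not cover, gave few calls. Of 18 tested pore, receptor and adaptor genes, 1 fell at 0.10 (5.56%, near the 4.91% of all genes) and none rose, at a median log2 change of −0.06. It was XPOT, the exporter of tRNA, at 29.5 and 31.4 FPKM in the knockdown, against 41.7 and 45.8 FPKM in wild type, a log2 change of −0.51 ± 0.09 (SE; limma adjusted p = 0.0701). NUPL1 and NUPL2, the older symbols of NUP58 and NUP42, had log2 changes of −0.19 and 0.15, and TPR of the basket and SEH1L of the Y complex had 0.07 and −0.37; none of these 4 passed.

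Of 25 genes of mRNA export, 0 were called at 0.10 by limma, with 4 lower and 1 higher at an unadjusted p under 0.05, and their median log2 change was −0.05. At that unadjusted p, 1488 of all 12953 genes tested were lower and 1866 higher, and at 0.10 4.91% were lower and 5.50% higher. These shares also apply to the lists below, where 0 calls among so few genes does not tell a list from all genes. RAE1, an mRNA export factor at the pore, had the smallest p of that list, at a log2 change of −0.28 (limma adjusted p = 0.128). Nuclear lamina and envelope genes gave 0 calls of 16 at 0.10 by limma, with 2 lower and 2 higher at an unadjusted p under 0.05, at a median of −0.02. The 15 proliferation genes gave 0 calls at 0.10 by limma and 1 lower at an unadjusted p under 0.05, with a median of −0.13; in MYC knockdown replicate 1 their median difference from the wild-type mean was 0.0055 and in MYC knockdown replicate 2 it was −0.26. Over the transport members the same medians were −0.17 and −0.18, and the part of proliferation in their difference was not tested.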

How the data were processed

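RNA of 4 NUGC3 libraries was measured, 2 with a MYC knockdown and 2 wild type, grouped by sample title. Total RNA came from Trizol lysates, per the labels' protocols. STAR and RSEM are named in the submitters' processing notes; the sources used here give no tool version, genome build or gene annotation. As for units, the values the authors deposited fit FPKM (decimal values, unequal column sums), with 2 decimals; TPM with rows left out would look alike. No read counts were recovered, so no counting interval is given.

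A gene entered the test if 2 or more libraries reached 1 FPKM. Values were taken as log2(FPKM + 1), which understates changes of low genes, and fitted by limma 3.58.1 under R 4.3.3 (lmFit and trended eBayes), with p-values Benjamini-Hochberg adjusted over 12953 genes. The fit was tested on simulated data. Positions come from GENCODE release 29. The members, lists, threshold of 0.10 and tests were chosen with earlier results of these data known. The rule for members given with every library's value was an adjusted p under 0.10 without overlap, the Ran cycle and main receptors, and in each role the largest change in each direction; KPNA2, XPO5, IPO8 and the ratios were added after their values were seen. Of the other pathway genes, up to 4 per list with an adjusted p under 0.10 were named by rule, and NUPL1, NUPL2, TPR, SEH1L and RAE1 after their values were seen. Alternatives were the pseudocount, 2 filters, protein-coding rows, 3 scalings, a replicate block and each library left out.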

Additional observations from a re-analysis of the deposited data

How the results depend on the processing

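The 7 members called lower at 0.10 became 4 with equal column sums, 11 with a mean of at least 5 FPKM, 12 with the median of ratios and 0 with no filter on low values, where 4.48%, 7.32%, 7.24% and 0% of all genes tested were lower, and lay between 0 and 25 with 1 library left out. Members called higher were 1 with equal column sums, with protein-coding rows alone and with a pseudocount of 0.1, each time IPO13. Of all genes tested, 12.67%, 7.79% and 5.34% were higher in these settings. The count of members higher also varied with 1 library left out, as did the share of all genes. At 0.05, 1 member was called with a mean of at least 5 FPKM, 1 with the median of ratios and 2 with protein-coding rows alone, against 3.23%, 2.26% and 3.33% of all genes, which is near the members' share, and between 0 and 20 with 1 library left out (26.1% and 26.4% of all genes without MYC knockdown replicate 1 or 2). The median log2 change of the members was −0.0835 with equal column sums and stayed between −0.18 and −0.17 with 1 library left out. The same replicate numbers in both groups did not pair the libraries (correlation of their deviations −0.0059), and with a replicate block 3 members were lower at 0.10, KPNB1, RANBP1 and RCC1, 2 of them among the 7, against 2.87% of all genes.

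Several members near 0 changed sign. NUP133 was at −0.0125 with the median of ratios, XPO7 at −0.0146 with the median of ratios and −0.0139 with quantile normalization, and RANGAP1 at 0.0704 with equal column sums. With 1 library left out NUP133 lay between −0.0695 and 0.122, XPO7 between −0.00877 and 0.0564, RANGAP1 between −0.216 and 0.167 and RANBP2 between −0.000464 and 0.0852. Of 276 values for 23 members under 12 alternatives, 207 kept their direction and side of the threshold; the cause of the other moves was not tested. In fits without 1 library, the lone library left in its group is assumed to vary like the other group.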
